A study of Mus musculus with 21 samples.

Results

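The matrix metalloproteinases (Mmp genes), the secreted Adamts proteases and their Timp inhibitors were examined in fibro-adipogenic progenitors (FAPs), mesenchymal support cells that multiply in damaged muscle. Members were the rows of the count table whose symbol is Mmp plus digits (an a or b may follow), Adamts plus digits, or Timp plus a digit. The rule used the symbol alone and found 46 of 55341 rows, made up of 23 Mmp, 19 Adamts and 4 Timp genes. The Prdm16 group came from adult mice of genotype Prdm16Flox/Flox::Pdgfrα Cre-ERT/+, and the WT group from adult mice of genotype Prdm16Flox/Flox::Pdgfrα+/+. Both groups thus carried floxed Prdm16 alleles, and only the Prdm16 group carried the tamoxifen-inducible Cre, which is made in cells that use Pdgfra. All mice received tamoxifen on 5 days, and their muscle was injured with cardiotoxin after 7 more days. FAPs were sorted 5 days after injury and grown on matrix-coated dishes for 4 or 5 days before harvest. RNA was read in 2 Prdm16 and 3 WT libraries, H3K9me2 domains in 3 libraries of each genotype, and LaminB1 domains in 1 library of each genotype. The labels do not say whether libraries of a group came from separate animals. The p-values thus measure the spread between these libraries, which may be technical. The 2 RNA libraries labelled Prdm16 differed in sex-linked RNA, as given below, so that pair was not a technical repeat of 1 animal.

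The Mmp genes encode zinc proteases that cut collagens, gelatin, laminins and other matrix proteins, and most are made as inactive precursors. The Adamts genes encode related secreted proteases that cut proteoglycans such as aggrecan and versican or trim procollagens. Timp proteins bind the active site of these enzymes and block it. In injured muscle, matrix proteases are known for clearing and rebuilding the matrix around regenerating fibres, and FAPs are among the cells that make them.

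RNA libraries held 8448654 and 5839587 counts in the Prdm16 group and 10657791, 7053114 and 10284864 counts in the WT group. WT replicate 3 and Prdm16 replicate 1 went against their labels, and every library is named below by its label. The p-values of the authors' deposited table matched a DESeq2 run within 1% for 14607 of 14607 genes when these 2 libraries were exchanged, and for 169 of 14607 genes (1.16%) as labelled. On the first principal component, which held 44.6% of the variance, the libraries labelled Prdm16 replicate 2 and WT replicate 3 lay at 32.6 and 42.2, and the other 3 between -39.9 and -9.08. Ifit3, an interferon-induced gene, had 554 and 22.1 CPM in Prdm16 libraries and 489, 765 and 20.8 CPM in WT libraries. Groups are therefore given by label, and calls are also given without these 2 libraries and with them exchanged. Counts of Prdm16 itself were 91 and 86 in the libraries labelled Prdm16 and 171, 94 and 59 in those labelled WT, and these ranges overlapped. Such counts can include transcript outside the floxed part, so they do not check the deletion. Xist had 15 counts in the library labelled Prdm16 replicate 2 and 3483 to 4652 in the other 4, and Y-linked Ddx3y had 372 counts in that library and 0 or 1 in the others. That library, which thus differed in sex-linked RNA, was the highest for Mmp3, Mmp10, Mmp13, Mmp1a and Timp1, and the part of sex in those values was not tested. All 11 FAP markers had counts in every library, and they summed to 3832 and 3201 CPM in Prdm16 and 3858, 4271 and 2240 CPM in WT libraries (CPM is the count scaled to library size). Of these, 4 had a positive and 7 a negative log2 fold change, beside 50.1% positive over all genes tested. There were 4 above and 2 below all WT libraries, beside 8.81% and 8.97% of genes tested. The authors' deposited table called 0 of these 11 markers up and 5 down, beside 1.97% and 5.58% of its rows with an adjusted p. Pdgfra itself had 758 and 585 CPM in Prdm16 and 820, 947 and 470 CPM in WT libraries.

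A run of 10 Mmp genes lies side by side on chromosome 9, from base 7272514 to base 7699585 of build GRCm38.p6, with 0 other protein-coding genes between them. In order they are Mmp13, Mmp12, Mmp1b, Mmp3, Mmp1a, Mmp10, Mmp8, Mmp27, Mmp20 and Mmp7. The 4 members with the lowest unadjusted p lie there, and the run was singled out after those values were seen. In 7 of these 10 genes the RefSeq promoter window, 250 bases before to 50 after the start, holds the 7-letter AP-1 motif TGAGTCA or TGACTCA. Each of these spellings is the other read on the opposite strand, so both strands were covered, and they overlap no other motif searched. In 0 of the other 22 members with a window was the motif found, and 14 members had no window in the tables used here. Over all 27025 genes with a window, 5.95% held it. The 120 bases before the start are printed because they hold the motif in the genes whose counts are compared next, with capitals for the AP-1 motif and for TATAAA, which 8.32% of all 32851 windows hold on the transcribed strand.
Mmp13 (chr9:7272394-7272513, plus strand): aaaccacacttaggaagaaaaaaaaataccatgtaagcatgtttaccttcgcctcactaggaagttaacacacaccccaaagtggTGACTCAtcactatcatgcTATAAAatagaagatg
Mmp12 (chr9:7347254-7347373, plus strand): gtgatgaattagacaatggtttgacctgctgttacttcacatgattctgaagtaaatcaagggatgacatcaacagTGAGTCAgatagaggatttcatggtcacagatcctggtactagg
Mmp1b (chr9:7388027-7388146, minus strand): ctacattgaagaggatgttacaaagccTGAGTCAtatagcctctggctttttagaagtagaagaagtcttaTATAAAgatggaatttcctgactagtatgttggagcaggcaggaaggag
Mmp3 (chr9:7445702-7445821, plus strand): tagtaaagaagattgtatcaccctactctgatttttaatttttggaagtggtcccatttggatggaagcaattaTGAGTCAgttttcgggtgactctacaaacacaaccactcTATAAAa
Mmp1a (chr9:7464021-7464140, plus strand): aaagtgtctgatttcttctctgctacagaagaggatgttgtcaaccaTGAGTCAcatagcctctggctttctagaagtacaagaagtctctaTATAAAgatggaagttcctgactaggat
Mmp10 (chr9:7502222-7502341, plus strand): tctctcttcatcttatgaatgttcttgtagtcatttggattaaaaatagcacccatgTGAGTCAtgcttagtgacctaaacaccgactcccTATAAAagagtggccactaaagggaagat
Mmp7 (chr9:7691970-7692089, plus strand): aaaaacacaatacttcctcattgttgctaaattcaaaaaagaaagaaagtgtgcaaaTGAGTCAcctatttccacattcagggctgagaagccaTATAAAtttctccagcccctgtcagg
The AP-1 motif began 35 bases before the start in Mmp13, 46 in Mmp3, 63 in Mmp10 and Mmp7, 73 in Mmp1a and 93 in Mmp1b. In Mmp12 it began 44 bases before the second of its annotated starts, and the first has no match. For Mmp7 the 63 bases are counted from the first of its annotated starts, and the window of the second has no match. Mmp13 alone among the 7 has the TGACTCA spelling on the transcribed strand. A match is a description of letters, and neither a binding site nor a cause is read from it.

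Of the 46 members, 30 passed edgeR's expression filter among 15240 genes (13 Mmp, 13 Adamts and 4 Timp), and 16 did not. By label, edgeR's quasi-likelihood test with Benjamini-Hochberg adjustment over all genes tested called 0 of the 30 members, beside 0 of 15240 genes (0%). At an unadjusted p under 0.05 there were 4 members, beside 2.48% of all genes tested. All 4 were higher in Prdm16 libraries, beside 1.11% of genes higher and 1.37% lower at that level. These 4 were Mmp1a, Mmp3, Mmp10 and Mmp13, all of the chromosome 9 run. DESeq2 and limma-voom also called 0 members, with 4 and 3 at an unadjusted p under 0.05. In 4 members (13.3%) both Prdm16 libraries lay above all WT libraries, beside 8.81% of genes tested. In 0 members did both lie below, beside 8.97%, and 17.8% of genes did not overlap in either direction. Members that pass a count filter through the group where they are high must differ. Mmp1a is such a member, with 16 counts in each Prdm16 library and 1 to 3 in WT libraries. These counts of members therefore describe the tested members and support nothing further.

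**Figure D1:**
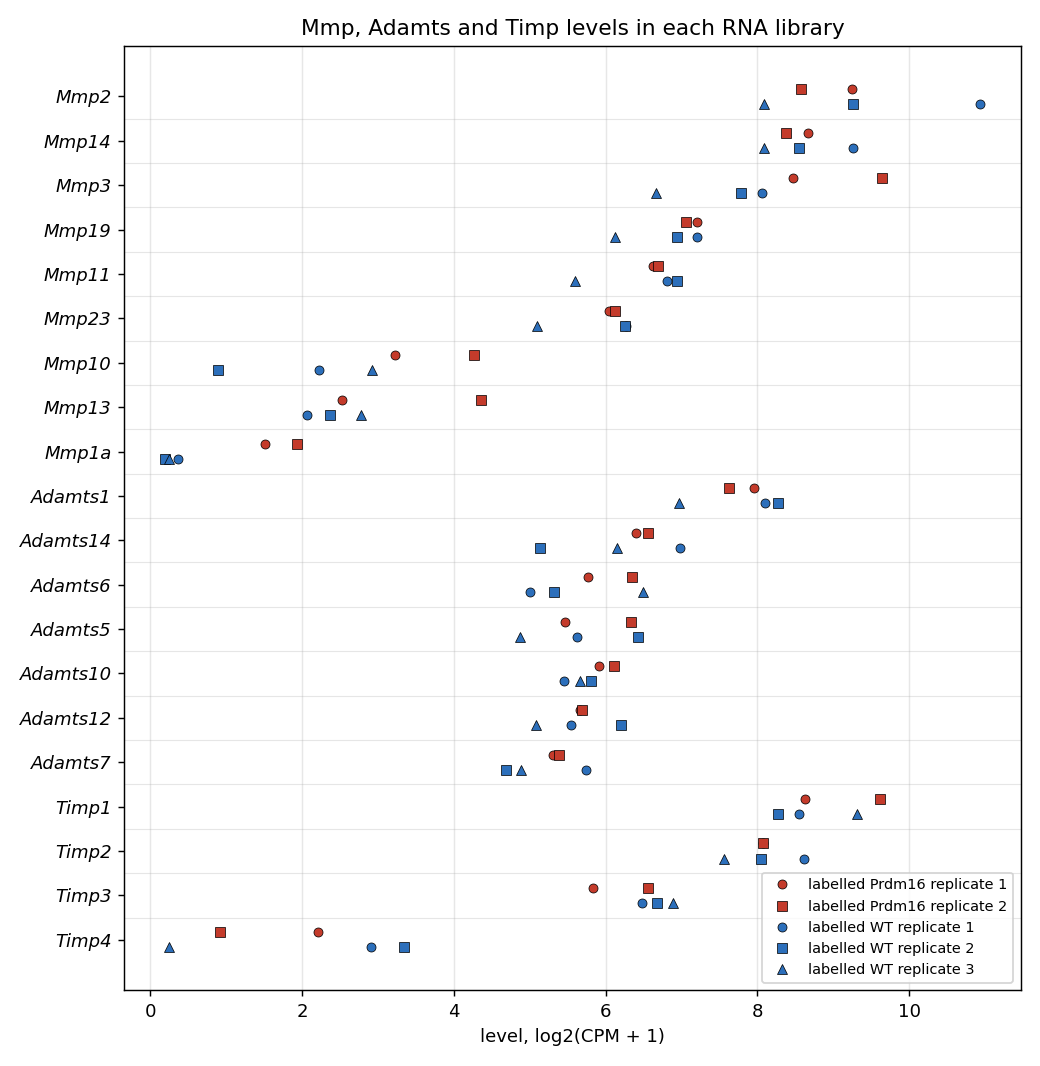
Level of 20 members in each RNA library, as log2(CPM + 1) on the horizontal axis, with the libraries labelled Prdm16 in red above those labelled WT in blue. Each point is 1 library. Mmp3, Mmp10, Mmp1a and Adamts10 have both red points right of all blue points, and the other 16 genes overlap.

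Mmp3, stromelysin-1, which cuts proteoglycans, laminin and fibronectin and activates other Mmp precursors, had 353 and 799 CPM in Prdm16 libraries, against 267, 219 and 101 CPM in WT libraries. Both Prdm16 libraries lay above all 3 WT libraries, and the library labelled Prdm16 replicate 2 was the higher of the pair. The log2 fold change was 1.56 with a standard error of 0.50 (edgeR, unadjusted p = 0.0215, adjusted p = 0.9996). Across 14 alternative settings the adjusted p of Mmp3 ranged between 0.0288 and 1 in edgeR, DESeq2 or limma-voom. With 1 library left out the log2 fold change of Mmp3 ran between 0.86, without the library labelled Prdm16 replicate 2, and 2.01, without Prdm16 replicate 1. It was 0.68 with the 2 libraries named above exchanged (edgeR, adjusted p = 0.819). The lowest adjusted p came without those 2 libraries, where Mmp3 was the 1 member of 31 called (3.23%, beside 0.614% of genes tested), with a log2 fold change of 1.69. That fit set 1 Prdm16 library against 2 WT libraries, so the spread came from the WT libraries and the lone Prdm16 library was assumed to vary like them. The lone library, Prdm16 replicate 2, had 15 counts of Xist, against 3483 and 3670 in the 2 WT libraries. Genotype label and sex-linked difference therefore cannot be told apart in that fit.

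Mmp10, stromelysin-2, a close relative of Mmp3, had 8.38 and 18.2 CPM in Prdm16 libraries, against 3.65, 0.857 and 6.60 CPM in WT libraries. These came from 72 and 103 counts in Prdm16 libraries and 38, 6 and 71 counts in WT libraries, and the groups did not overlap. The log2 fold change was 1.81 with a standard error of 0.71 (edgeR, unadjusted p = 0.0378, adjusted p = 0.9996). Over its 13 alternative settings the adjusted p of Mmp10 in edgeR, DESeq2 or limma-voom lay between 0.0924 and 1. With 1 library left out its log2 fold change ran between 1.16, without the library labelled Prdm16 replicate 2, and 2.50, without WT replicate 3.

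Mmp13, collagenase-3, which cuts fibrillar collagens, had 4.77 and 19.5 CPM in Prdm16 libraries, against 3.17, 4.14 and 5.86 CPM in WT libraries. The groups overlapped, since the library labelled Prdm16 replicate 1 lay below that labelled WT replicate 3. The log2 fold change was 1.45 with a standard error of 0.59 (edgeR, unadjusted p = 0.0414, adjusted p = 0.9996), and without the library labelled Prdm16 replicate 2 it was 0.13. The adjusted p of Mmp13 in edgeR, DESeq2 or limma-voom lay between 0.155 and 1 over 14 alternative settings.

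Mmp1a, the mouse interstitial collagenase related to human MMP1, was read at few counts, 16 and 16 in Prdm16 libraries, against 3, 1 and 2 in WT libraries. Both Prdm16 libraries stood above all WT libraries. The gene passed the count filter through the Prdm16 libraries alone, so that gap was partly fixed by the filter. The ratio and p-values that follow describe these counts and support nothing further. The summed counts gave a ratio of 10.5 after correction for library size, with a 95% interval between 4.35 and 30.9 that covers counting error only (edgeR, unadjusted p = 0.00132, adjusted p = 0.9996). Over 13 alternative settings the adjusted p of Mmp1a in edgeR, DESeq2 or limma-voom lay between 0.113 and 1. Its fitted log2 fold change, which depends on the prior at such counts, was 3.37 by label and 0.81 with the 2 libraries exchanged (edgeR, adjusted p = 0.889). Mmp1b, its near-identical neighbour, did not pass the filter, with 4 and 12 counts in Prdm16 libraries and 1, 4 and 7 in WT libraries. Its ranges overlapped, and reads that fit both Mmp1 copies could have been split or dropped, so both genes' counts are uncertain.

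The other 5 genes of the run had 0 to 2 counts in every library. They are Mmp12 (macrophage elastase), Mmp8 (neutrophil collagenase), Mmp27, Mmp20 (enamelysin) and Mmp7 (matrilysin). Mmp7 had 0 counts in all 5 libraries. The macrophage marker list summed to 6.40 and 8.49 CPM in Prdm16 and 6.81, 6.85 and 7.81 CPM in WT libraries. Of its 11 genes, 3 were at 0 in all libraries (Adgre1, C1qa and Fcgr1). Neutrophil markers summed to 1.63 and 4.25 CPM in Prdm16 and 2.88, 2.86 and 3.63 CPM in WT libraries, with S100a9, Csf3r and Ltf at 0 in all libraries, 3 of 10 genes.

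The 7 tenocyte markers summed to 91.3 and 184 CPM in Prdm16 libraries, against 54.6, 57.8 and 47.3 CPM in WT libraries, without overlap. Of the 6 tested, 5 were higher, beside 50.1% of all genes tested. At an unadjusted p under 0.05 there were 4, beside 2.48% of genes, but edgeR called 0 after adjustment. Thbs4, a matrix glycoprotein of tendon, had 66.0 and 125 CPM in Prdm16 libraries, against 37.0, 35.0 and 29.8 CPM in WT libraries, and it made up most of the sum. Thbs4 and Mkx lay above all WT libraries, while Comp, Fmod and Tnmd overlapped and Kera was not tested. Over all genes tested, 8.81% lay above all WT libraries and 8.97% below. Scx, the transcription factor that defines tendon cells, lay below, with 0.931 and 0.708 CPM in Prdm16 libraries, against 2.78, 1.43 and 1.02 CPM in WT libraries. Myoblast markers summed to 286 and 299 CPM in Prdm16 libraries, against 112, 138 and 369 CPM in WT libraries, with the library labelled WT replicate 3 highest. In bulk RNA, more cells of a type and more RNA per cell cannot be told apart. The part of other cells in the protease values was not tested.

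**Figure D2:**
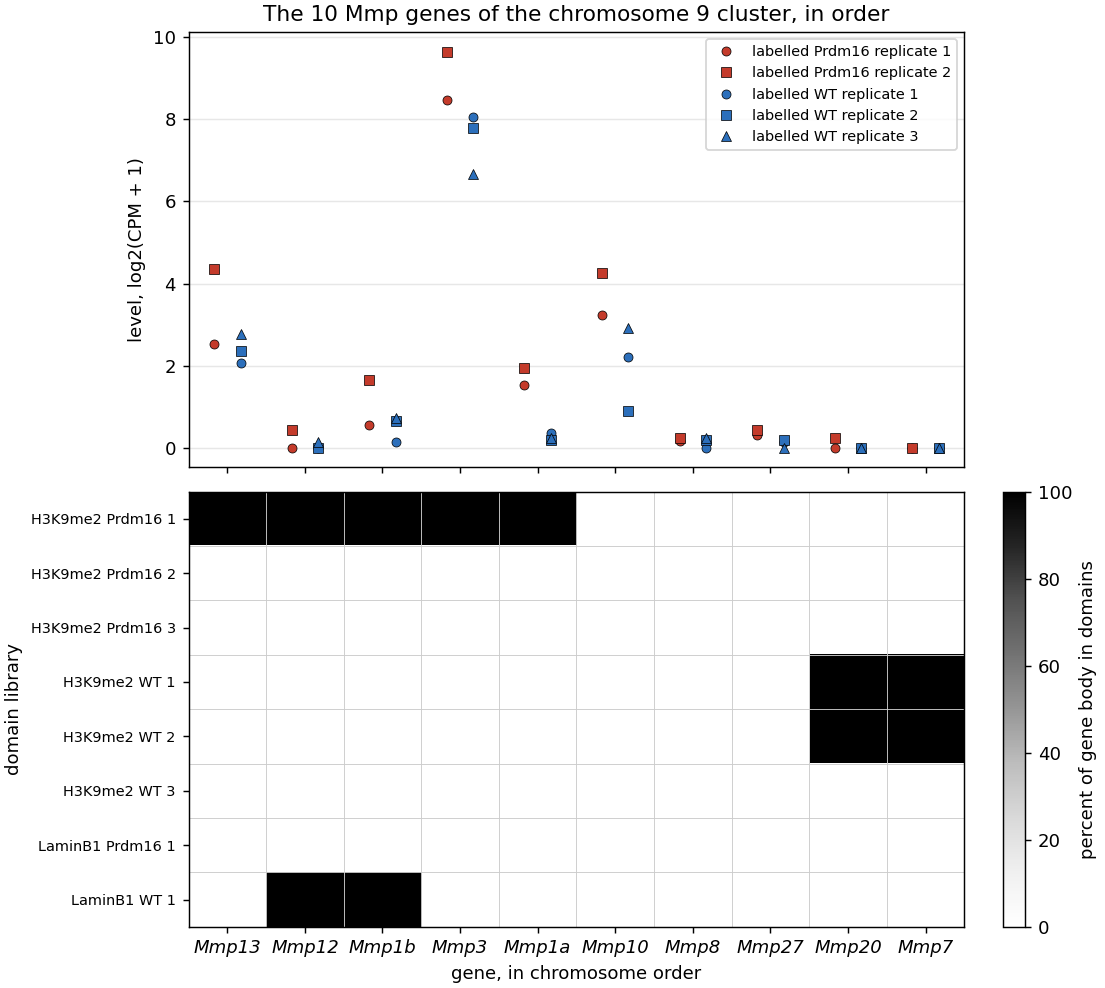
Top, level of the 10 Mmp genes of the chromosome 9 run in chromosome order, as log2(CPM + 1), with libraries labelled Prdm16 in red left of those labelled WT in blue and 1 point per RNA library. Bottom, percent of each gene body inside domains in 8 domain libraries, from 0 (white) to 100 (black). Mmp3, Mmp1a and Mmp10 have both red points above all blue points, and the 5 genes from Mmp13 to Mmp1a are dark in the first H3K9me2 library labelled Prdm16 and in no other H3K9me2 library.

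Mmp genes outside the run did not separate the groups. Mmp2, gelatinase A, which cuts denatured collagen and basement membrane collagen, had 609 and 382 CPM in Prdm16 libraries, against 1953, 612 and 271 CPM in WT libraries. Mmp2 spans chr8:92827290-92853421 (GRCm38.p6, as are all positions here). The library labelled WT replicate 1 stood far above the others, and Mmp2 took 40.9% of all member counts there, beside 10.3% to 20.5% in the other 4 libraries. The log2 fold change was -0.93 with a standard error of 0.91 (edgeR, unadjusted p = 0.36), and without the library labelled WT replicate 1 it was 0.16.

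Mmp14, a membrane-anchored protease that activates the Mmp2 precursor, had 407 and 332 CPM in Prdm16 libraries, against 612, 372 and 272 CPM in WT libraries. Here too the libraries labelled WT held both the highest and the lowest value. Mmp19, which cuts basement membrane proteins, had 147 and 133 CPM in Prdm16 libraries, against 147, 121 and 68.5 CPM in WT libraries. Mmp11, stromelysin-3, had 97.6 and 102 CPM in Prdm16 libraries, against 111, 121 and 47.6 CPM in WT libraries. Mmp23, a membrane-tethered member, had 64.8 and 68.8 CPM in Prdm16 libraries, against 75.8, 75.7 and 33.1 CPM in WT libraries. In these last 3 genes the library labelled WT replicate 3 was lowest, and the groups overlapped.

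Of the 13 Mmp genes tested, 9 had a positive and 4 a negative log2 fold change, with a median of 0.10. The remaining tested Mmp genes, Mmp9, Mmp15, Mmp16 and Mmp28, averaged under 20 CPM and overlapped between groups. Mmp9 (gelatinase B) had 4 and 6 counts in Prdm16 libraries and 14, 13 and 9 in WT libraries, which did not overlap as counts but did as CPM. The 10 untested Mmp genes reached at most 12 counts in a library.

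Among Adamts proteases, Adamts10 alone had both Prdm16 libraries above all WT libraries. Adamts10, which acts on fibrillin microfibrils, had 59.2 and 67.9 CPM in Prdm16 libraries, against 42.7, 55.3 and 49.5 CPM in WT libraries. Adamts10 spans chr17:33523646-33553782. The gap was small, with a log2 fold change of 0.37 and a standard error of 0.21 (edgeR, unadjusted p = 0.118, adjusted p = 0.9996, between 0.782 and 1 over 14 alternative settings).

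The proteoglycan-cutting members did not separate the groups. Adamts1 had 247 and 197 CPM in Prdm16 libraries, against 273, 307 and 124 CPM in WT libraries. Adamts5, the main aggrecanase of mouse cartilage, had 43.2 and 79.6 CPM in Prdm16 libraries, against 48.4, 85.4 and 28.2 CPM in WT libraries. In both, the WT libraries held the highest and the lowest value. Adamts15, a versican-cutting member, had 207 and 52 counts in Prdm16 libraries, against 277, 289 and 3 counts in WT libraries. The library labelled WT replicate 3 was thus almost without Adamts15 while the others of its group were highest.

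Adamts14, a procollagen N-propeptidase, had 83.4 and 92.9 CPM in Prdm16 libraries, against 125, 34.1 and 70.2 CPM in WT libraries. Adamts6 had 53.5 and 80.8 CPM in Prdm16 libraries, against 31.0, 39.0 and 88.9 CPM in WT libraries. Here the libraries labelled Prdm16 replicate 2 and WT replicate 3 were the 2 highest. Adamts12 and Adamts7, which cut cartilage oligomeric matrix protein, also overlapped. Adamts12 had 49.6 and 50.6 CPM in Prdm16 libraries, against 45.5, 72.7 and 33.0 CPM in WT libraries. Adamts7 had 38.5 and 40.7 CPM in Prdm16 libraries, against 52.4, 24.7 and 28.6 CPM in WT libraries. Of the 13 Adamts genes tested, 9 had a positive and 4 a negative log2 fold change, with a median of 0.14. The 6 untested Adamts genes reached at most 5 counts, and Adamts18 had 0 in all 5 libraries.

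None of the 4 Timp inhibitors separated the groups. Timp1, a secreted inhibitor of most Mmp enzymes, had 394 and 785 CPM in Prdm16 libraries, against 374, 308 and 637 CPM in WT libraries. The libraries labelled Prdm16 replicate 2 and WT replicate 3 were the 2 highest. Timp1 spans chrX:20870166-20874737. Timp2, which also joins Mmp14 in activating Mmp2, had 269 and 268 CPM in Prdm16 libraries, against 392, 263 and 188 CPM in WT libraries. Both Prdm16 values lay inside the WT range.

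Timp3, the matrix-bound inhibitor that also blocks Adamts enzymes, had 56.2 and 93.2 CPM in Prdm16 libraries, against 87.9, 101 and 117 CPM in WT libraries. The library labelled Prdm16 replicate 1 was lowest. Timp4 had 31 and 5 counts in Prdm16 libraries, against 68, 64 and 2 counts in WT libraries, so the libraries labelled Prdm16 replicate 2 and WT replicate 3 were the 2 lowest. Timp4 spans chr6:115244444-115252205. The Timp log2 fold changes were 0.42 for Timp1, -0.06 for Timp2, -0.45 for Timp3 and -1.16 for Timp4, with standard errors of 0.39, 0.29, 0.26 and 1.34 in that order. With 1 library left out, Timp3 ran between -0.85, without the library labelled Prdm16 replicate 2, and -0.16, without Prdm16 replicate 1. Timp4 ran between -2.57, without Prdm16 replicate 1, and -0.52, without Prdm16 replicate 2. Over the 30 tested members together, 19 log2 fold changes were positive (63.3%, beside 50.1% of genes tested), and the median was 0.10 beside 0.00053 over all genes.

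The authors' deposited table called 5 members at an adjusted p under 0.1 and a log2 fold change over 0.5 in size, beside 7.55% of its 6237 rows with an adjusted p. An adjusted p under 0.05 was listed in the authors' deposited table for 4 of these, beside 6.09% of the rows. Called up in the authors' deposited table were 3 of the 19 members with an adjusted p (15.8%), beside 1.97% of rows. Called down in the authors' deposited table were 2 of those 19 (10.5%), beside 5.58%. In the authors' deposited table Timp1 had a log2 fold change of 0.85 (adjusted p = 0.00194), Adamts6 of 0.86 (adjusted p = 0.0276) and Mmp13 of 1.19 (adjusted p = 0.0518). In the authors' deposited table Timp4 had a log2 fold change of -3.42 (adjusted p = 0.000175) and Adamts1 of -0.61 (adjusted p = 0.0468). The authors' deposited table thus called different members from the 4 with an unadjusted p under 0.05 by label, apart from Mmp13. It gave log2 fold changes of 0.04 for Mmp3, 0.25 for Mmp10 and 0.03 for Mmp1a. In the exchanged grouping, which its p-values matched, edgeR gave 0.68, 1.495 and 0.81 in that order. For Timp1 and Timp4 edgeR gave 0.99 and -3.75 there, nearer to the authors' values. Sizes of fold change are therefore not compared between the authors' deposited table and edgeR.

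With the 2 libraries exchanged, edgeR called 2 of 30 members (6.67%, beside 1.19% of genes tested). These were Timp1, with a log2 fold change of 0.99 (edgeR, adjusted p = 0.0423), and Timp4, with -3.75 (edgeR, adjusted p = 0.0433). That grouping called 0.157% of genes higher and 1.04% lower. Over the alternative settings in edgeR, DESeq2 or limma-voom, the adjusted p of Timp1 lay between 0.0423 and 1, and that of Timp4 between 0.0433 and 1. In that grouping the libraries labelled Prdm16 replicate 2 and WT replicate 3 form the Prdm16 pair. Which grouping describes the genotypes cannot be told from the counts. In the RefSeq annotation Timp1, Timp3 and Timp4 each overlap a synapsin gene, with at most 29 counts of Syn1, 3 of Syn3 and 5 of Syn2 in any library, where Timp4 had as few as 2. Larger partners overlap Mmp23 and Mmp19, with up to 195 counts of Mib2 beside at least 356 of Mmp23, and up to 377 of Tmem198b beside at least 737 of Mmp19. The sources used here do not give the strand setting, so reads of overlapping genes cannot be told apart.

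**Figure D3:**
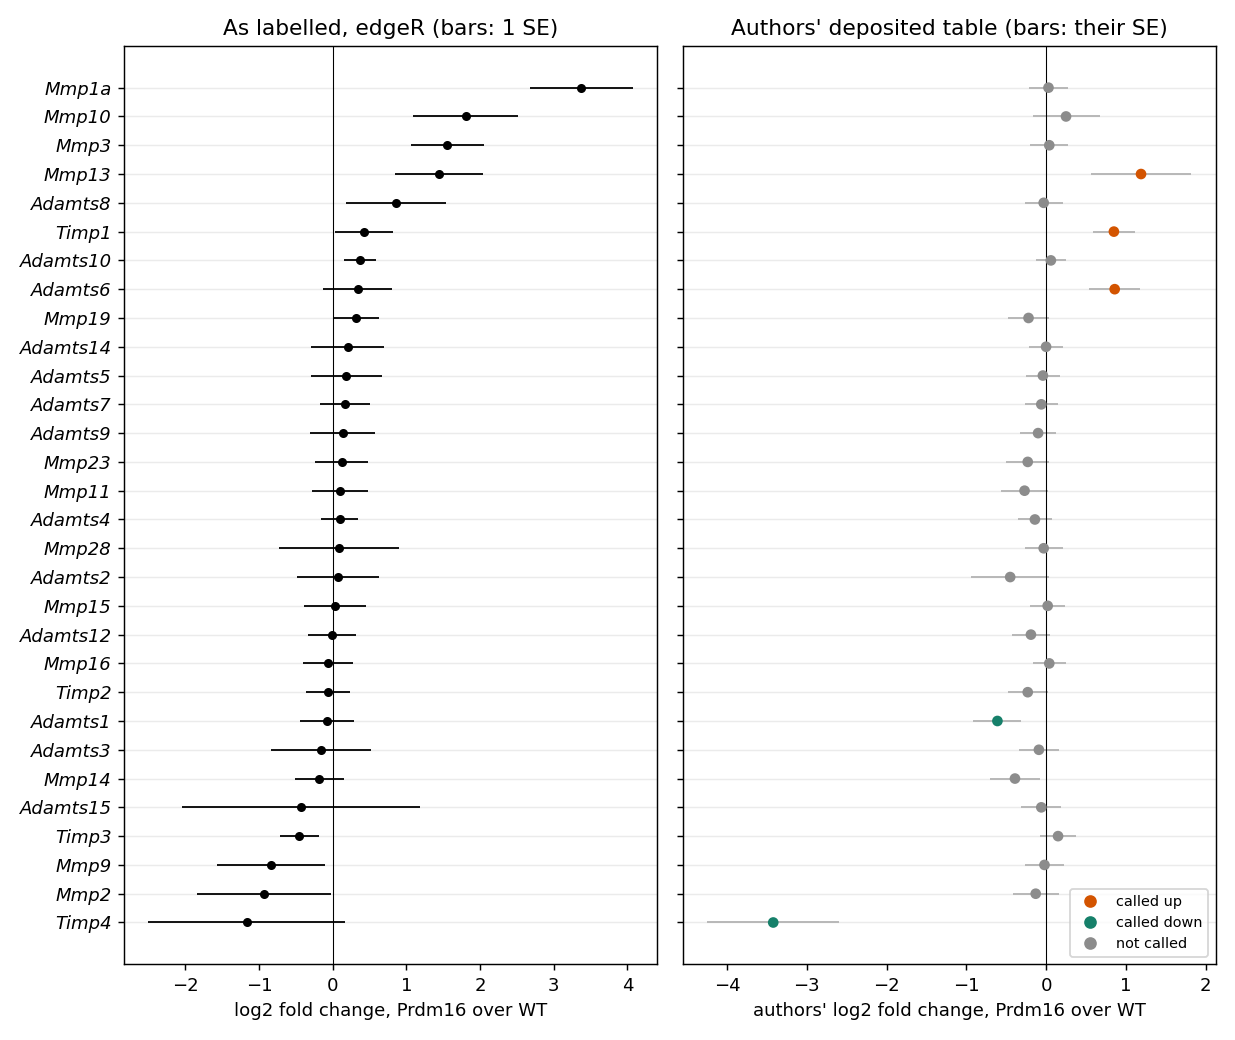
Log2 fold change, Prdm16 over WT, of the 30 tested members, on the left from edgeR by label with bars of 1 standard error, and on the right from the authors' deposited table with their standard error. Points right of 0 are higher in Prdm16, and sizes are not compared between the panels. Mmp1a, Mmp10, Mmp3 and Mmp13 lead the left panel, while the authors' deposited table called Timp1, Adamts6 and Mmp13 up (orange) and Timp4 and Adamts1 down (green). The fitted value of Mmp1a rests on 1 to 3 counts in WT libraries, and Mmp1a passed the count filter through the Prdm16 libraries alone.

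Other genes that regulate or share this proteolysis were also examined. Of 37 regulators and other matrix proteases, 32 were tested and edgeR called 0, with 25 positive and 7 negative log2 fold changes (beside 50.1% positive over all genes) and 2 at an unadjusted p under 0.05 (beside 2.48%). Their median was 0.27, beside 0.00053 over all genes. In 7 of these both Prdm16 libraries lay above all WT libraries and in 0 below, beside 8.81% and 8.97% of all genes. Adam8, a membrane sheddase, had 34.6 and 29.2 CPM in Prdm16 libraries, against 25.1, 17.9 and 17.6 CPM in WT libraries, without overlap (edgeR, log2 fold change 0.66, unadjusted p = 0.035). Adamtsl2, a protease-like glycoprotein without catalytic activity, had 1.40 and 5.48 CPM in Prdm16 libraries, against 0.768, 1.29 and 1.21 CPM in WT libraries. Adamtsl1 had 7.33 and 29.7 CPM in Prdm16 libraries, against 9.40, 9.28 and 5.02 CPM in WT libraries, and these ranges overlapped. Ctsl, a lysosomal protease, had 3067 and 2816 CPM in Prdm16 libraries, against 2564, 1989 and 1166 CPM in WT libraries.

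Of 22 matrix substrates, 20 were tested, 15 with a positive and 5 with a negative log2 fold change and a median of 0.27. Over all genes tested, 50.1% were positive. edgeR called 0 of these substrates, and Comp and Fmod had an unadjusted p under 0.05, beside 2.48% of genes tested. Comp and Fmod are also tenocyte markers. Of 19 known inducers, 15 were tested, 11 with a positive and 4 with a negative log2 fold change and a median of 0.15. edgeR called 0 of these inducers and 0 had an unadjusted p under 0.05. Of the 15 tested, 1 lay above all WT libraries (Jun) and 1 below (Fos), beside 8.81% and 8.97% of all genes tested. Jun and Fos encode subunits of the AP-1 factor, and a link to the promoter motif was not tested. Jun had 229 and 271 CPM in Prdm16 libraries, against 184, 196 and 204 CPM in WT libraries. Its groups did not overlap, with a log2 fold change of 0.36 and a standard error of 0.17 (edgeR, unadjusted p = 0.074). Fos had 19.1 and 20.3 CPM in Prdm16 libraries, against 21.9, 21.6 and 21.0 CPM in WT libraries (edgeR, log2 fold change -0.12, unadjusted p = 0.611). The other AP-1 subunits listed, Junb and Fosl1, overlapped between groups, with log2 fold changes of -0.015 and 0.046. Fos, Junb and Fosl1 were named after their values were seen.

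H3K9me2 is a histone mark of silent chromatin that often lies in broad domains, and LaminB1 marks chromatin at the nuclear lamina. Domain libraries were separate samples from the RNA libraries. A gene was counted as covered when a share of at least 0.5 of its body lay in a domain. H3K9me2 domains covered 10, 5 and 4 of the 46 members in the Prdm16 libraries, against 7, 5 and 3 in the WT libraries. The means were 6.33 ± 3.21 in Prdm16 and 5.00 ± 2.00 in WT libraries (SD, n = 3 each, exact two-sided permutation p = 0.70, where 0.1 is the smallest p that 3 against 3 allows). The mean share of a member body inside domains was 13.1% ± 6.18 in Prdm16 and 10.4% ± 4.13 in WT libraries (SD, n = 3 each, exact permutation p = 0.60), and the median share was 0 in every library. Of all 21631 genes with coordinates, 9.19%, 8.94% and 6.65% were covered in the Prdm16 libraries and 14.5%, 9.16% and 10.9% in the WT libraries. The corresponding shares of members were 21.7%, 10.9% and 8.70% in the Prdm16 libraries and 15.2%, 10.9% and 6.52% in the WT libraries.

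Coverage was concentrated in few members. Of the 46, 32 lay in no domain of any kind, 14 were covered in at least 1 H3K9me2 library and 7 in a single one. Adamts3, a procollagen N-propeptidase, was covered in all 6 H3K9me2 libraries. Adamts18 was covered in all 3 Prdm16 libraries and in WT replicates 1 and 2, and Adamts19 in all 3 Prdm16 libraries and in WT replicates 1 and 3. Mmp16, a membrane-anchored protease, was covered in Prdm16 replicates 2 and 3 and in WT replicates 1 and 3. No member was covered in all 3 libraries of one genotype and in none of the other. Of the 14 covered members, 7 had passed the count filter and 7 had not. Such counts across libraries were not made over all genes, so these numbers describe the members only.

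**Figure D4:**
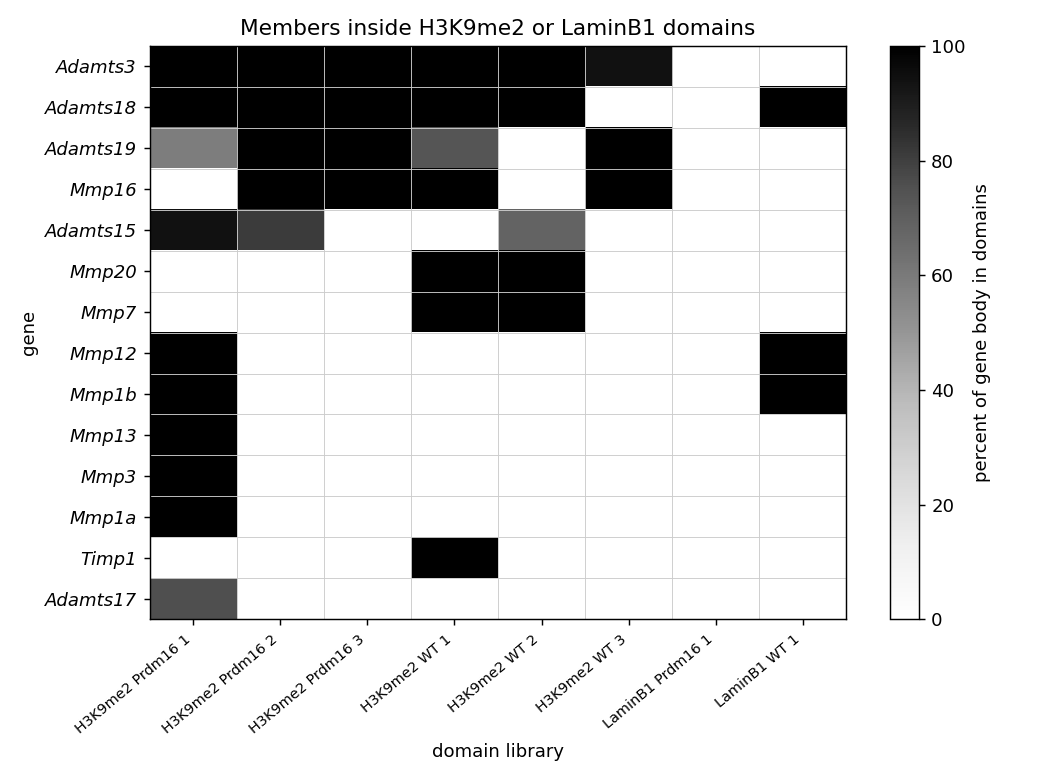
Percent of each gene body inside domains, from 0 (white) to 100 (black), for the 14 members covered in at least 1 library, in 8 domain libraries with Prdm16 left of WT for each mark. Adamts3 is dark in all 6 H3K9me2 libraries, and the column of the first Prdm16 library is dark for 10 members, beside 3 to 7 in the other 5.

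In the chromosome 9 run, the domain pattern differed between libraries of one genotype. The first H3K9me2 library labelled Prdm16 had 50.5% of the run in domains, with Mmp13, Mmp12, Mmp1b, Mmp3 and Mmp1a covered, while the other Prdm16 libraries had 0%. The WT libraries had 21.4%, 20.04% and 0% of the run in domains, with Mmp20 and Mmp7 covered in replicates 1 and 2. Without the first Prdm16 library, the difference in members covered turned to -0.5. LaminB1 domains covered 0 members in the Prdm16 library and 3 in the WT library (Mmp12, Mmp1b and Adamts18), with 1 library a genotype and no test. Of all genes, LaminB1 domains covered 9.46% in the Prdm16 library and 15.3% in the WT library.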

How the data were processed

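Per the labels' protocols, SMART-seq2 was used on polyadenylated RNA. Builds GRCm38, mm10 and dm6 are named, with featureCounts, DESeq2 1.20, STAR 2.7 and Bowtie 1.2.2, per the submitters' processing notes. The sources used here do not give their roles, the strand setting or the domain caller. The authors deposited raw counts per gene, whose totals, 5839587 to 10657791 per library, limit the precision for low members. They also deposited a comparison table, with a mean normalized signal, a log2 fold change, its standard error (held here as a score) and p-values with and without adjustment, per the file headers. Each deposited domain list gave positions and the authors' score, which was not used. Domain depth is unknown. The normalized count table and the 8 input samples were not used, and 0 columns of per-sample values were left without a sample.

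Counts were tested with edgeR 4.0.16 in R 4.3.3 (default expression filter, trimmed mean of M-values, robust quasi-likelihood, two-sided, Benjamini-Hochberg adjustment over 15240 genes, threshold 0.05), after tests on simulated data. DESeq2 1.42.0, limma 3.58.1 (voom), other scalings and filters, a replicate block and libraries left out or exchanged were alternatives. Domains and promoters were read with pandas 2.3.3, scipy 1.17.1 and numpy 2.4.6 (Python 3.11.15). Figures used matplotlib 3.10.9. Gene positions and promoter windows are RefSeq's, build GRCm38.p6. Exact permutation was used for 3 against 3 domain libraries, and the number of covered members and the mean share were added after the median share was seen to be 0.

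Members and lists were chosen with earlier results of these data known. Named in full were the 16 members of highest mean CPM, those with an unadjusted p under 0.05, those the authors called and the Timp genes. The rule called for a level per length, but exon lengths were not used here, so mean CPM replaced it and levels are not compared between genes. Of each other list, up to 4 genes with the smallest p were eligible.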

Additional observations from a re-analysis of the deposited data

How the results depend on the processing

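By label, edgeR called 0 genes, against 1 with upper-quartile scaling, 25 with no filter, 1 with DESeq2, 0 to 4 with 1 library left out, 93 without the pair that went against its labels (WT replicate 3 with Prdm16 replicate 1), and 182 with these exchanged. Leaving out either Prdm16 library, or that pair, leaves 1 Prdm16 library, assumed to vary like the WT libraries. Without Prdm16 replicate 1, alone or with WT replicate 3, the Prdm16 library left was replicate 2, which differed in sex-linked RNA. Members called were 0 under every alternative except 1 without those 2 libraries and 2 with them exchanged. Positive member values numbered 13 to 22 with 1 library left out and 11 after the exchange. Negative ones numbered 17 with no filter, 7 under the strict filter, 17 with DESeq2, 6 with limma-voom, 17 without the 2 libraries, 19 after the exchange, and 6 to 17 with 1 library left out. The median log2 fold change was -0.37 after the exchange and lay between -0.14 and 0.22 with 1 library left out. The replicate block called 1 gene and 0 members and gave 17 negative values and a median of -0.13. No Prdm16 RNA library is numbered 3, so the block gave WT replicate 3 its own term and no part in the fold change. Leaving out WT replicate 3 likewise gave 17 negative values, with a median of -0.14, so the 2 settings are not separate checks. Deviations from the group means in same-numbered libraries correlated at 0.22 for replicate 1 and -0.23 for replicate 2. With 2 Prdm16 libraries, 1 deviation is the negative of the other. These values therefore cannot show whether replicate numbers pair the libraries. The block also gave log2 fold changes of -0.22 for Mmp11, -0.18 for Mmp23 and -0.13 for Adamts5.

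Reversals elsewhere were 0.00079 for Timp2, 0.029 for Adamts1 and 0.10 for Adamts12 with limma-voom, and 0.015 and 0.0020 for Adamts12 with upper-quartile scaling and the strict filter. Without the 2 libraries, Mmp19 was -0.036, Mmp11 -0.21 and Mmp23 -0.16, while Mmp2 was -1.77, Timp1 1.18, Mmp14 -0.59, Adamts1 -0.58 and Adamts12 -0.24. After the exchange, Mmp19 was -0.46, Mmp11 -0.56, Timp3 0.37, Mmp23 -0.51, Adamts5 -0.14 and Adamts7 -0.16. With 1 library left out, log2 fold changes ran between -1.36 and 0.16 for Mmp2, -0.15 and 0.81 for Timp1, -0.41 and 0.19 for Mmp14, -0.28 and 0.24 for Timp2, and -0.38 and 0.17 for Adamts1. They ran between -0.21 and 0.34 for Mmp11, -0.15 and 0.74 for Adamts14, -0.18 and 0.30 for Mmp23, -0.31 and 0.68 for Adamts5, -0.23 and 0.35 for Adamts12, and -0.032 and 0.55 for Adamts7. Mmp3, Mmp10, Mmp13 and Mmp1a stayed positive under every alternative that gave a value, but with the pair exchanged Mmp3 was 0.68, Mmp10 1.495, Mmp13 1.63 and Mmp1a 0.81, and with 1 library left out they ran between 0.86 and 2.01, 1.16 and 2.50, 0.13 and 2.11, and 3.08 and 3.65 in that order. With 1 domain library left out, the difference in members covered by H3K9me2 lay between -0.5 and 2.5, and that in mean share between -0.83 and 4.91 percentage points. As a block, these were 1.33 (exact permutation p = 0.50) and 2.704 points (exact permutation p = 0.25). In that permutation 0.25 is the smallest p that 3 pairs allow, and the labels do not say that replicate numbers pair libraries. The cause of these changes was not tested, and members with few counts are limited by depth.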
